A study of Mus musculus with 4 samples.

Results

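The genes described here make and control sterols and fatty acids, the lipids that a dividing T cell needs for new membrane, and most are known targets of the sterol regulatory element binding proteins (SREBPs). The set holds 37 genes named by symbol, of 45526 genes or unnamed transcripts on the array. Array probes carry transcript accessions, and a gene was matched through them to its symbol and represented by its probe with the highest mean signal. An accession matched 36 of the 37 genes, the exception being Acat2, and 35 were tested. Abca1 was not tested because its probe was well above background on only 1 wild-type array.

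SREBP precursors are held in the endoplasmic reticulum by Scap and the Insig proteins while sterols are plentiful. When sterols fall, Scap carries them to the Golgi, where proteases release the part that enters the nucleus and binds DNA. The factor encoded by Srebf2 is known mainly for cholesterol synthesis genes and that encoded by Srebf1 for fatty acid synthesis genes. In T cells the pathway is induced by antigen receptor stimulation and is needed for growth. Liver X receptors (LXR) act in the opposite sense, sensing oxidised sterols and inducing efflux pumps such as Abca1 and Abcg1.

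Cells came from spleens of male C57BL/6 mice, either wild type or Irf4-/-, a genotype lacking the transcription factor Irf4, which T cells induce through the antigen receptor. Naive CD4+ T cells (CD62L+CD44-) of both genotypes were stimulated with 1 µg/ml antibody to CD3e beside mitomycin C-treated syngeneic antigen-presenting cells, and living CD4+ cells were sorted for RNA on day 2, per the labels. There were 2 samples of each genotype, each on 1 one-colour array, from independent experiments. A culture protocol in the labels names shorter times, and day 2 is taken from the titles and the design text. The age of the mice, the number of mice per sample and the extent of the deletion are not given in the sources used here.

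Promoter windows of RefSeq (build GRCm38.p6), from 250 bases before to 50 bases after a gene's start, were matched to 29 of the 37 genes. The 8 without a window were Fdps, Fdft1, Sqle, Stard4, Abcg1, Fads1, Scd1 and Scd2, the last pair having the largest differences between genotypes. The windows of 5 of the 29 are shown because members with large and small differences between genotypes can be set side by side. Each line gives the 250 bases before the start, 5′ to 3′ on the gene's strand, with capitals marking a sterol regulatory element (SRE, TCACNCCAC), an E-box (CACGTG) or an NF-Y box (CCAAT) on either strand. SREBPs are known to bind the first pair, and NF-Y is a factor that acts beside them. Hmgcs1 lies at chr13:119690101-119690350 (plus strand), Insig1 at chr5:28071162-28071411 (plus strand), Acss2 at chr2:155517793-155518042 (plus strand), Fads2 at chr19:10101504-10101753 (minus strand) and Fasn at chr11:120824548-120824797 (minus strand).
Hmgcs1: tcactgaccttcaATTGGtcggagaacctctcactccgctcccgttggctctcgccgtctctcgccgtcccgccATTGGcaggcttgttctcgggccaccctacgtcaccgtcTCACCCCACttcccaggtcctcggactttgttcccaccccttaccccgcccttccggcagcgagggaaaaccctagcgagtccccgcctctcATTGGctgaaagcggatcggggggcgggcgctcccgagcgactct
Insig1: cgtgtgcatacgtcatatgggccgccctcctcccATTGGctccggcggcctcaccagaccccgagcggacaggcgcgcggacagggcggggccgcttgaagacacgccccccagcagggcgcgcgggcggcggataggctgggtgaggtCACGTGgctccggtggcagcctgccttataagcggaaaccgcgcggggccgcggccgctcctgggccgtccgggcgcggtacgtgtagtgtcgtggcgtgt
Acss2: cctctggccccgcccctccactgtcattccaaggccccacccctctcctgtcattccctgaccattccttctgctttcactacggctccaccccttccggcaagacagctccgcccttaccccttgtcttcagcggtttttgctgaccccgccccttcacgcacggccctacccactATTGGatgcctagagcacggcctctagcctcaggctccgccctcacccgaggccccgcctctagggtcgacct
Fads2: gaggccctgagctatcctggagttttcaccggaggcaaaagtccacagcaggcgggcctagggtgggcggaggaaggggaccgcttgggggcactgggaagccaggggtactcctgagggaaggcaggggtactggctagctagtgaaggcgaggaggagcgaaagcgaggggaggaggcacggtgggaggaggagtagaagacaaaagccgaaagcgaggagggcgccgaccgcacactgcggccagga
Fasn: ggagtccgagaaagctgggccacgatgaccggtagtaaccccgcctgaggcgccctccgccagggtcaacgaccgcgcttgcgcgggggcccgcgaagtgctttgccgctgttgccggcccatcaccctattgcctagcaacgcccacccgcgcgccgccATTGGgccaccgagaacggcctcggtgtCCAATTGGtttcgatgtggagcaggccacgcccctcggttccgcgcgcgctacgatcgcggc
The Hmgcs1 window holds an SRE that begins 137 bases before the start, with NF-Y boxes at 237, 176 and 45 bases. In Insig1 an NF-Y box begins at 216 bases and an E-box at 101 bases. Acss2 has 1 NF-Y box, at 73 bases, and Fads2 none of these letters in its window. Fasn has NF-Y boxes at 90, 62 and 59 bases, the last pair overlapping on opposite strands.

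Over the whole 300 bases, NF-Y boxes occurred in at least 1 window of 23 of the 29 members (79.3%), against 41.1% of 27025 genes with a window and 42.8% of the tested ones. Members with several starts have several windows, and per window the shares were 63.2% of 38 and 37.4% of all. E-boxes occurred in 7 members (24.1%, against 8.09% of all genes and 11.3% of the tested ones). The SRE letters occurred in Hmgcs1 alone (3.45%, against 1.44% of all genes and 1.4% of the tested ones). Letters bound by Irf4 and its partners were searched in the same way. The AP-1 site TGANTCA occurred in Msmo1 and Dhcr7 (6.90%, against 8.97% of all genes and 6.43% of the tested ones). The IRF site, a pair of GAAA spaced by 2 bases, occurred in Ebp (3.45%, against 3.99% and 3.85%). Neither of the 2 composite elements of Irf4 with AP-1, TTTC spaced by 4 bases from TGANTCA and GAAA directly followed by TGANTCA, occurred in a member. Their shares were 0.133% and 0.141% of all genes and 0.0677% and 0.106% of the tested ones. These matches describe the letters of the windows and were not tested.

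Irf4 was read first as a check of the labels. Its signal, as log2 relative to the 75th percentile of the array, was 5.03 and 4.74 in wild-type replicates 1 and 2 and 4.23 and 4.04 in the Irf4-/- replicates. Both Irf4-/- arrays were the lower, by -0.75 ± 0.20 (SE) in the mean, with an adjusted p of 0.231 in limma, and where the probe lies relative to the deletion is not known here. Of 56605 probes each array had 25677 to 28725 well above background, and the filter on dim signal left 20505 genes or transcripts to test. Limma called 151 of these at an adjusted p under 0.05 (0.736%; 0.493% higher and 0.244% lower). It called 0 when either wild-type array was left out (1864 without replicate 1 and 1678 without replicate 2 at an unadjusted p under 0.05), 487 without Irf4-/- replicate 1 and 208 without replicate 2. All 8 T-cell markers tested, Cd3e and Cd4 among them, were well above background on all 4 arrays. Of the 8 myeloid and dendritic markers 5 were above background on no array (Lyz2, Itgax, Adgre1, Fcgr1 and Clec9a). Itgam and Csf1r of the same list were well above background on all 4 arrays. Itgam was at 2.81 and 3.20 in wild type and 2.64 and 2.76 in Irf4-/-. Csf1r was at 2.09 and 1.55 against 2.10 and 1.56. Also above background on no array were the erythroid and platelet markers Alas2, Pf4 and Ppbp, and Ncr1 among 5 markers of CD8 T and NK cells. The summed signal of the 8 B-cell markers, in multiples of the 75th percentile, was 1.43 to 2.76 in wild type and 1.98 to 5.08 in Irf4-/-, with 6 of 8 above background on all arrays. The same sum was 9.44 to 10.6 against 7.69 to 8.10 for the CD8 T and NK markers, 11.3 to 12.2 against 9.84 to 10.7 for the myeloid and dendritic markers, and 0.115 to 0.230 against 0.314 to 0.426 for the erythroid and platelet markers. The 2 CD8 T and NK markers above background on all arrays went opposite ways. Cd8b1 was at 3.12 and 3.21 in wild type and 2.23 and 2.14 in Irf4-/-, and Klrd1 at -0.73 and 0.37 against 1.52 and 1.86. The part of such other cells in the differences below was not tested. On the slide, wild type occupied column 1 and Irf4-/- columns 2 and 3, so a column effect cannot be told apart from genotype.

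Sterol and fatty acid synthesis genes were mostly lower in activated CD4+ T cells lacking Irf4. Of the 35 tested members 32 had negative differences (53.3% of all tested genes did), with a median of -0.34 on the log2 scale against -0.02 over all tested genes. On both Irf4-/- arrays 26 members lay below both wild-type arrays, which 21.3% of all tested genes did, and Elovl5 alone lay above (17.9% of all tested genes). The largest differences belonged to Scd1, Scd2, Acss2 and Fads2, all of fatty acid handling. Differences below -0.5 were found for 10 members, against 7.35% of all tested genes. No member passed the test over all genes (limma, adjusted p from 0.0788 to 0.999). At an unadjusted p under 0.05, 10 members were lower (5.01% of all tested genes) and 0 higher (6.35%). Among genes above background on every array, the smallest change that limma called was 2.84-fold, and Scd1 was the only member with a larger one. Fewer cells with a transcript and less of it per cell cannot be told apart in these bulk samples.

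**Figure D1:**
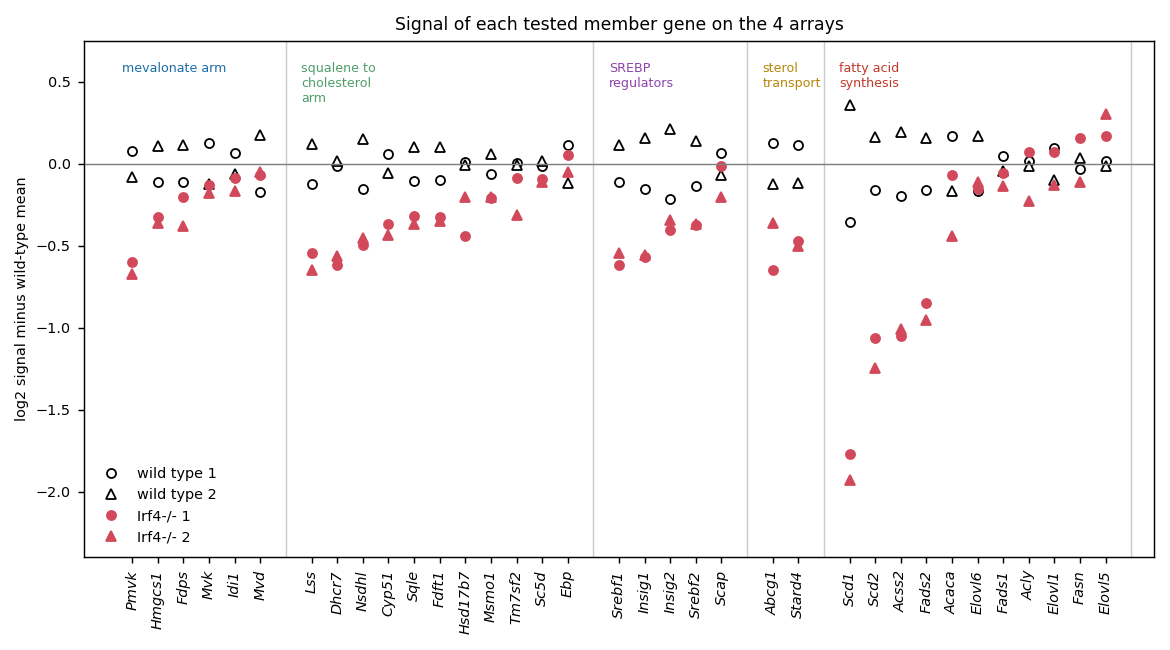
Log2 signal of each tested member on each array, minus the wild-type mean of that gene, by role. Open symbols are wild type and filled symbols Irf4-/-, circles replicate 1 and triangles replicate 2. Both Irf4-/- arrays lie below both wild-type arrays for 26 of 35 genes, with the widest gaps for Scd1, Scd2, Acss2 and Fads2.

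**Figure D2:**
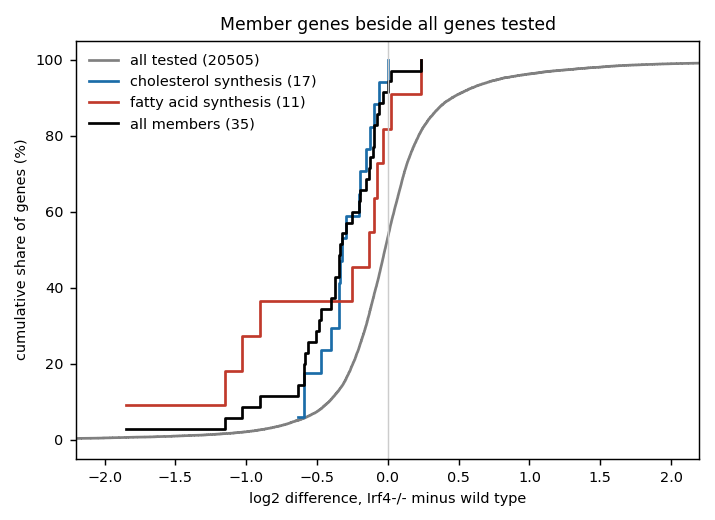
Cumulative share of genes by log2 difference (Irf4-/- minus wild type), for all 20505 genes tested, the 35 members, the 17 cholesterol synthesis genes and the 11 fatty acid synthesis genes. The member curves lie to the left of the grey curve, and the fatty acid curve has a separate tail of 4 genes below -0.90.

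The stearoyl-CoA desaturase genes stood lowest. They encode the enzymes that put the first double bond into saturated fatty acyl chains and are textbook targets of SREBP-1 and LXR. Scd1 signal was -0.16 and 0.56 on the wild-type arrays and -1.57 and -1.73 on the Irf4-/- arrays. The groups did not overlap, with a gap of 1.41 between the nearest arrays. The difference was -1.85 ± 0.28 (SE), or 3.60-fold lower, with an adjusted p of 0.0788 (limma), and it ranked 116 from the lowest of 20505. Its size differed between slide rows, at -1.41 for the replicate 1 arrays and -2.28 for the replicate 2 arrays. Wild-type replicate 2 was the highest array and Irf4-/- replicate 2 the lowest. Scd2 had the same order of arrays, at 6.26 and 6.58 in wild type and 5.36 and 5.18 in Irf4-/-. Its difference of -1.15 ± 0.20 (SE), 2.22-fold lower, was not called either (adjusted p = 0.103, limma). Each gene was read by 1 probe, whose sequence is not used here, so signal shared between these paralogs cannot be told apart.

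Other enzymes that supply or modify acyl chains were also lower. Acss2, which makes acetyl-CoA from acetate, was at 0.71 and 1.099 in wild type and -0.15 and -0.11 in Irf4-/- cells. That is a difference of -1.03 ± 0.21 (SE), 2.04-fold lower (limma, adjusted p = 0.135), and a second Acss2 probe differed by -0.97. Fads2, the delta-6 desaturase of polyunsaturated fatty acids, was at 0.61 and 0.93 against -0.08 and -0.18. The groups again did not overlap, and the difference was -0.90 ± 0.19 (SE; adjusted p = 0.162, limma). Its second, dimmer probe differed by only -0.26, and the mean of both probes by -0.58 (limma, adjusted p = 0.586). The size of the Fads2 difference thus depended on the probe. Fads1, the delta-5 desaturase encoded beside Fads2, differed by -0.10 (95% interval -0.53 to 0.34).

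The enzymes that build the saturated chain itself were close to level. Fasn, the fatty acid synthase, was at 5.99 and 6.06 in wild type and 6.18 and 5.91 in Irf4-/- cells, with overlapping groups. Its difference was 0.02 (95% interval -0.46 to 0.50), or -0.09 with arrays scaled to their medians. A change within that interval cannot be set aside, and the interval is not a limit of detection. The smallest change called among genes above background on every array was 2.84-fold. Acly, which makes cytosolic acetyl-CoA from citrate, differed by -0.08 (95% interval -0.56 to 0.41), and its second probe by -0.32. Acaca, the carboxylase that makes malonyl-CoA, was at 4.01 and 3.67 against 3.77 and 3.40, with overlapping groups and a difference of -0.25 (-0.84 to 0.34). Among the elongases, Elovl1 differed by -0.03, Elovl6 by -0.13 and Elovl5 by 0.24. Elovl5, which lengthens polyunsaturated chains, was the only member with both Irf4-/- arrays (3.28 and 3.42) above both wild-type arrays (3.13 and 3.10), with an adjusted p of 0.773 (limma). The median of the 11 fatty acid genes was -0.13, with 9 negative (53.3% of all tested genes). Of the 11, 5 had both Irf4-/- arrays below both wild-type arrays (21.3% of all tested genes). With arrays scaled to their medians the fatty acid median was -0.24, while the median of all tested genes moved from -0.02 to -0.13. By the brightest probe, 4 genes lay at -0.90 or lower and 7 between -0.25 and 0.24. That gap was narrower for Fads2 with the mean of its probes, given above. Leaving out 1 array gave medians of -0.22 (without Irf4-/- replicate 1) to -0.068 (without Irf4-/- replicate 2).

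**Figure D3:**
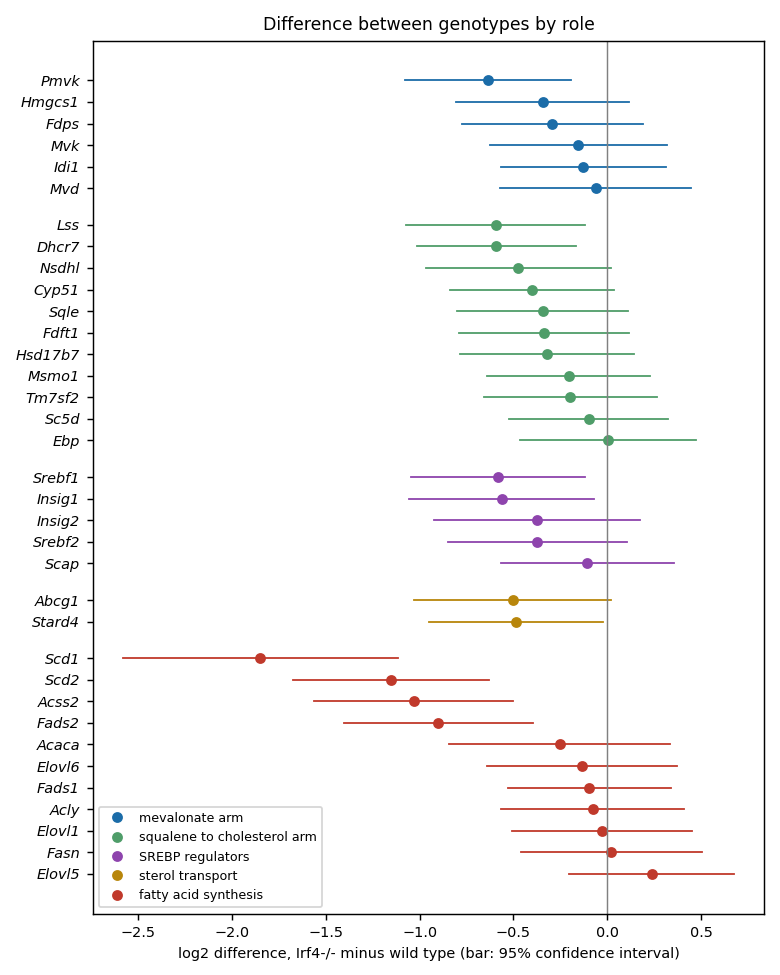
Log2 difference (Irf4-/- minus wild type) of each tested member with its 95% confidence interval from limma, by role. Intervals of Scd1, Scd2, Acss2, Fads2, Pmvk, Lss, Dhcr7, Srebf1, Insig1 and Stard4 exclude 0 before any correction for the number of genes tested.

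Cholesterol synthesis genes were lower by small amounts nearly throughout. Of 17 tested genes from Hmgcs1 to Dhcr7, 16 had negative differences (53.3% of all tested genes did). For 15 both Irf4-/- arrays lay below both wild-type arrays (21.3% of all tested genes). Differences of the 17 ran from -0.64 to 0.00, with a median of -0.32. No fold was larger than 1.55, and none passed the test (limma, lowest adjusted p 0.244). At an unadjusted p under 0.05 (limma), 3 were lower, Pmvk, Lss and Dhcr7 (5.01% of all tested genes were lower). Whether the cholesterol and fatty acid genes differed from each other was not tested.

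In the mevalonate arm, which builds isoprenoid units from acetyl-CoA, all 6 tested genes had negative differences (53.3% of all tested genes did), with a median of -0.22. Pmvk, the phosphomevalonate kinase, was at 6.11 and 5.95 in wild type and 5.43 and 5.36 in Irf4-/- cells. The groups lay 0.52 apart at their nearest, the difference was -0.64 ± 0.17 (SE; limma, adjusted p = 0.244), and a second probe gave -0.62. Hmgcs1, which condenses acetoacetyl-CoA with acetyl-CoA and whose window holds the SRE shown above, was at 5.73 and 5.95 against 5.51 and 5.47, a difference of -0.34. Fdps, the farnesyl diphosphate synthase, was at 5.99 and 6.21 against 5.89 and 5.72, a difference of -0.29 whose size was -0.09 in slide row 1 and -0.49 in row 2. Mvk, Idi1 and Mvd were closer to level, at -0.15, -0.13 and -0.06. Mvk, the mevalonate kinase, was barely separated between genotypes. Mvd, the decarboxylase, was the only gene of this arm with overlapping groups.

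From squalene to cholesterol, 10 of 11 genes had negative differences (53.3% of all tested genes did), with a median of -0.34. For 10 both Irf4-/- arrays lay below both wild-type arrays (21.3% of all tested genes). Lss, which cyclises squalene epoxide to lanosterol, was at 2.75 and 2.999 in wild type and 2.33 and 2.23 in Irf4-/- cells. All 3 of its probes gave similar differences, at -0.60, -0.48 and -0.64. Dhcr7, the last enzyme of the route to cholesterol, was at 0.79 and 0.82 against 0.18 and 0.24. Its replicates lay close together in each genotype, and the difference of -0.59 ± 0.17 (SE) had an adjusted p of 0.256 (limma). Nsdhl, a sterol dehydrogenase, differed by -0.47 and Cyp51, the lanosterol demethylase, by -0.40, the latter with a second probe at -0.42. Fdft1 and Sqle, which make squalene and oxidise it, differed by -0.34 each, at 4.55 and 4.75 against 4.33 and 4.28 for Sqle. Hsd17b7, Msmo1, Tm7sf2 and Sc5d differed by -0.32, -0.21, -0.20 and -0.10. Ebp, the sterol isomerase, was the exception, with overlapping groups and a difference of 0.00 (95% interval -0.47 to 0.47) that was 0.10 by its second probe and -0.11 with arrays scaled to their medians.

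All 5 regulators of the pathway had negative differences (53.3% of all tested genes did), with a median of -0.37, and none passed the test (limma, adjusted p from 0.310 to 0.944). Srebf1, which encodes SREBP-1, was at 5.37 and 5.60 in wild type and 4.87 and 4.94 in Irf4-/- cells, a difference of -0.58 ± 0.18 (SE; limma, adjusted p = 0.310) with no overlap. Srebf2 differed by -0.37, from 1.64 and 1.92 to 1.40 and 1.41. Insig1, itself an SREBP target that holds the precursors back, was at 0.68 and 0.99 against 0.27 and 0.28, a difference of -0.56 ± 0.19 (SE; limma, adjusted p = 0.361). Insig2, its paralog, had 3 probes with differences of -0.37, -0.36 and -0.23. In Srebf1, Srebf2, Insig1 and Insig2 wild-type replicate 2 was higher than replicate 1, while the Irf4-/- arrays lay closer together. Without wild-type replicate 2 the median of the regulators was -0.24, and without replicate 1 it was -0.59. Scap, the escort protein gene, had overlapping groups and differed by -0.11 (-0.57 to 0.36).

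Both tested sterol transport genes had negative differences, and neither passed the test. Stard4, a cytosolic sterol carrier and SREBP target, was at 3.11 and 2.88 against 2.52 and 2.49, a difference of -0.49 ± 0.18 (SE; limma, adjusted p = 0.406), and its second probe differed by -0.18. Abcg1, the LXR-induced sterol efflux pump, was at 2.04 and 1.79 against 1.27 and 1.56, a difference of -0.50 ± 0.20 (SE; limma, adjusted p = 0.463). For each of them both Irf4-/- arrays lay below both wild-type arrays (21.3% of all tested genes). Abca1 was near the limit of detection, at -3.75 and -4.09 in wild type and -5.68 and -5.05 in Irf4-/- cells. Its probe was well above background on 1 of 2 wild-type arrays and on no Irf4-/- array. A second, dimmer Abca1 probe was above background on no array. No fold is given, since the gene was not measured on both arrays of either genotype.

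**Figure D4:**
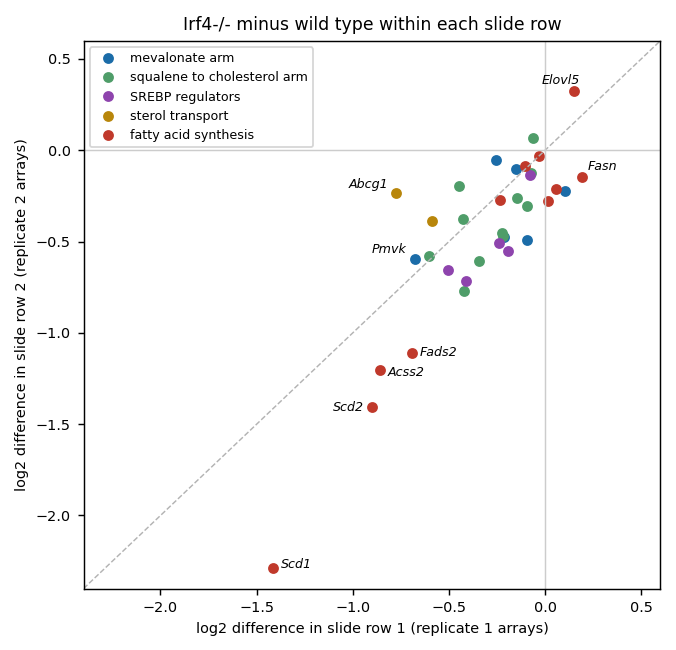
Log2 difference (Irf4-/- minus wild type) of each tested member in slide row 1 (replicate 1 arrays, x axis) and slide row 2 (replicate 2 arrays, y axis). Points of 29 genes are negative in both rows. Scd1, Scd2, Acss2 and Fads2 lie below the dashed line of equal differences.

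The pattern was present in both slide rows and in most probes. Row 1 held the replicate 1 arrays and row 2 the replicate 2 arrays, and the member median was -0.22 in row 1 and -0.37 in row 2. Negative differences in both rows were found for 29 of 35 members, against 33.5% of all tested genes. Further probes that passed the filter on dim signal existed for 17 members. Of these 20 further probes 17 had negative differences (53.3% of all tested genes did), and 19 had the sign of the brightest probe. The median gap to the brightest probe was 0.09, the largest being that of Fads2 (0.64). Groups overlapped in a further probe each of Mvk, Hsd17b7, Stard4, Fads2 and Insig2, though not in their brightest probes. The reverse held for a further probe each of Acly and Acaca.

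Genes around the pathway were read from other lists, chosen by name. None of the genes in them passed the test (limma), as was the case for the members, so the medians and values describe these arrays. Among all tested genes 53.3% had negative differences. At an unadjusted p under 0.05 (limma), 5.01% were lower and 6.35% higher. Of 11 tested genes of sterol uptake, storage and transport, 8 had negative differences (median -0.30), with 3 lower and 1 higher at an unadjusted p under 0.05. Soat2, a sterol acyltransferase, was at 0.82 and 1.22 in wild type and -0.28 and -0.14 in Irf4-/- cells, a difference of -1.23 ± 0.21 (SE; limma, adjusted p = 0.0992). Vldlr, a lipoprotein receptor gene, differed by -1.53 ± 0.56 (SE; adjusted p = 0.397, limma), with wild-type arrays as far apart as -1.02 and 0.65. Npc2, a lysosomal sterol carrier, differed by -0.65 and Scarb1, a lipoprotein receptor, by -0.56. Lipa, the 1 higher gene of this list, differed by 0.56 ± 0.17 (SE; limma, adjusted p = 0.296). Of 8 further SREBP processing genes 6 had positive differences (median 0.03), and Mbtps1 and Mbtps2, the Golgi proteases, differed by 0.00 and 0.24. The sterol-binding Pgrmc1 differed by 0.53.

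The 10 other isoprenoid genes, with 8 negative, had a median of -0.11 and no difference beyond -0.28. Among 8 LXR-related genes 5 were negative (median -0.01). The receptor gene Nr1h2 differed by 0.07 and Nr1h3 by -0.48. The partner receptor gene Rxra differed by -0.89 ± 0.35 (SE; limma, adjusted p = 0.449), with wild-type arrays as far apart as 4.45 and 3.53. Smpdl3a, an LXR target, differed by 1.01 ± 0.18 (SE; limma, adjusted p = 0.112). Mylip, another LXR target, was at -1.20 and -1.12 in wild type and -0.89 and -0.55 in Irf4-/- cells, a difference of 0.44 (limma, adjusted p = 0.520). Smpdl3a and Mylip thus had the opposite sign to Abcg1. Lpcat3 of the same list had the sign of Abcg1, at -0.22 (limma, adjusted p = 0.812), as had Scd1, named above as an LXR target. Of 19 other fatty acid and glycerolipid genes 13 were positive (median 0.09). At an unadjusted p under 0.05 (limma), 4 were higher (6.35% of all tested genes) and 1 lower (5.01%). Dgat2, which makes triglycerides, differed by 0.87, and the dehydratase genes of chain elongation, Hacd2 and Hacd3, by 0.82 and 0.63. Elovl7 was measured on both wild-type arrays (-2.61 and -2.87) but on only 1 of 2 Irf4-/- arrays (-3.71, with -6.10 on the array where it was not well above background), so its difference has no exact size. Fatty acid oxidation genes had a median of -0.09 over 15, with Decr1 at 0.54. A mixed list of 7 genes around Mtor and Myc had a median of -0.13, with Lpin2 at -0.69, Myc at 0.12 and Mtor at -0.16.

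**Figure D5:**
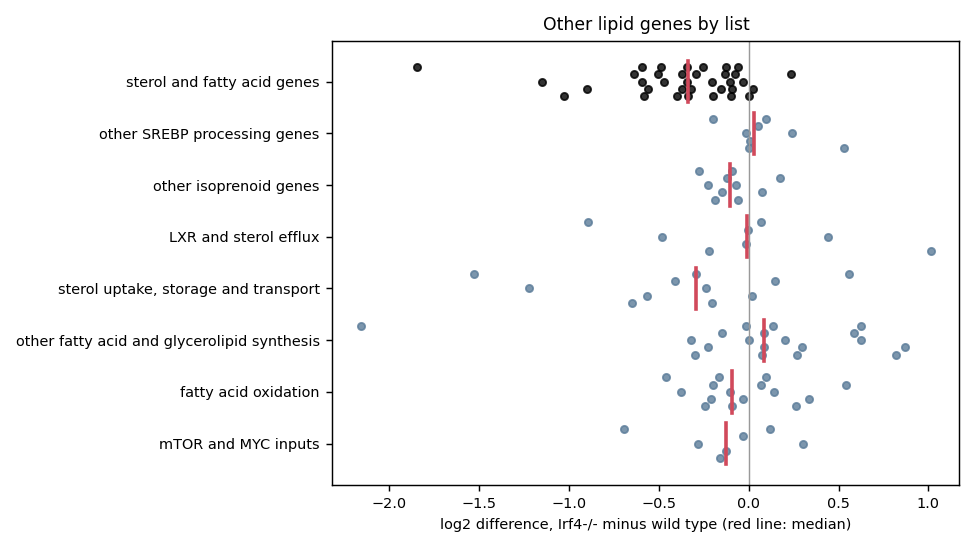
Log2 difference (Irf4-/- minus wild type) of each tested gene in the member set and in 7 other lists, with the median of each as a red line. Medians lie at -0.34 for the members, -0.30 for sterol uptake, storage and transport, and between -0.13 and 0.09 for the other lists. The lowest point, Elovl7, rests on 1 Irf4-/- array below background.

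Member calls depended on the variance model, the background correction and the scaling. With trend and robust settings limma called 5 members lower, Scd1, Scd2, Acss2, Fads2 and Pmvk, against 1.52% of all tested genes called lower and 3.89% called in either direction in that fit. The same 5 were called with normexp background correction (1.46% of all tested genes lower, 3.71% in either direction), and Scd1, Scd2 and Acss2 with median scaling (2.18% and 5.08%). With normexp the differences themselves were smaller for Scd1 (-1.29), Acss2 (-0.88) and Fads2 (-0.65), and that of Scd2 was -1.18. For Scd1 the adjusted p ran from 2.92e-06 (median scaling) to 0.591 (no filter on dim signal) over all settings, and for Scd2 from 0.00137 to 0.780. With 1 array left out, the Scd1 difference lay between -2.21 and -1.49 and that of Scd2 between -1.32 and -0.99. Neither was called in any of these fits, which rest on 1 residual degree of freedom.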

How the data were processed

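Per the file headers, spot intensity of the Cy3-labelled one-colour arrays was extracted by Feature Extraction 11.0.1.1. A different version, 9.1, is named in the submitters' processing notes. The deposited processed intensity is background-subtracted and was not scaled between arrays. The authors also deposited a log2 table, centred per probe, whose columns matched the scanner values to within 0.05 for at least 99.97% of probes after a constant shift. Its column medians were -0.16, 0.10, -0.11 and 0.12.

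Control and flagged spots were left out, and the 75th percentile of all non-control log2 signals was subtracted on each array. Names came from RefSeq and Ensembl accessions listed for genes of GRCm38.p6, which matched 32919 probes, and the array design was annotated on mm9. Genes with a probe detected (well above background) on both wild-type or both Irf4-/- arrays entered limma 3.58.1 in R 4.3.3 (lmFit, eBayes, 2 residual and 2.95 prior degrees of freedom), and p-values were adjusted by Benjamini-Hochberg across the 20505 (threshold 0.05). The script was tested on simulated data. Log2 fold differences are Irf4-/- minus wild type. The number of arrays limits the precision, and p-values measure only the spread between these samples.

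All member genes could be named, and of other lists up to 4 genes with the largest differences. Those singled out after their values were seen (Mbtps1, Nr1h2, Lipa, Lpcat3, Myc) were named in addition. Members, lists and tests were chosen with earlier results of these data known. The planned normexp correction used median in place of mean spot intensity. Alternatives were normexp (offset 50), quantile and median scaling, trend and robust, 2 other filters, the mean of probes, the deposited table, the replicate block and leaving out each array.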

Additional observations from a re-analysis of the deposited data

How the results depend on the processing

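Over 13 alternatives the median difference of the members stayed negative, and at least 30 of 35 members kept negative differences in each. The number of genes called over the whole array was 151 and went to 760 with normexp, 797 with trend and robust, 1042 with median scaling, 260 with the deposited table, 5 with quantile normalization and 0 without a filter (2099 at an unadjusted p under 0.05). With the replicate block, which equals slide row, 0 were called (3195 unadjusted), and leaving out 1 array gave 0 to 487 (1864 and 1678 unadjusted where 0, without wild-type replicates 1 and 2). Nothing in the labels pairs the samples, and deviations of same-numbered arrays correlated at 0.348 across genes. Members called were 0, 5 with normexp, 5 with trend and robust and 3 with median scaling. Median scaling moved the median of all genes to -0.13 (from -0.02), and with it the medians of all members to -0.45, of the mevalonate arm to -0.33, of the squalene to cholesterol arm to -0.45 and of fatty acid synthesis to -0.24. With the mean of probes the squalene to cholesterol median was -0.30. Leaving out 1 array gave medians of -0.37 to -0.24 for all members, -0.32 to -0.17 for the mevalonate arm, -0.35 to -0.24 for the squalene to cholesterol arm, -0.22 (without Irf4-/- replicate 1) to -0.068 (without Irf4-/- replicate 2) for fatty acid synthesis, -0.62 to -0.38 for sterol transport and -0.59 (without wild-type replicate 1) to -0.24 (without wild-type replicate 2) for the regulators.

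Signs turned only for genes near 0. Ebp was -0.017 with normexp, -0.11 with median scaling and -0.011 with the deposited table, and Fasn -0.087 with median scaling. With 1 array left out, Ebp ran from -0.11 to 0.12, Fasn from -0.11 to 0.16, Mvd from -0.23 to 0.11, Acly from -0.22 to 0.070, Elovl1 from -0.13 to 0.068 and Elovl6 from -0.30 to 0.035. The cause of these changes was not tested. The number of arrays limits what can be called: 95% intervals excluded 0 for only 10 of 35 members, before correction for the genes tested.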
